A study of Mus musculus with 8 samples.

Results

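The core genes of non-homologous end joining were followed in neural progenitor cells of the mouse embryo. The set was chosen by gene symbol and has 10 members, Xrcc5, Xrcc6, Prkdc, Lig4, Xrcc4, Nhej1, Poll, Polm, Parp1 and Lig3. All 10 were among the 32499 genes of the count table, and all 10 were among the 15021 with enough reads to be tested. RNA-seq was made from cells of the neural tube of C57BL/6 embryos at embryonic day 14, sorted with NeuroFluor CDr3, a dye that binds the progenitor protein Fabp7. There were 4 libraries labelled 53BP1 KO (KO-labelled below) and 4 labelled control. KO-labelled embryos came from females with the targeted allele Trp53bp1tm1Jc and males with in-frame CRISPR deletions in the same gene, and the controls were wild-type embryos of the same day. The labels do not say which allele each library carries, whether a library is 1 embryo or a pool, or whether its cells were cultured after the sort. They also do not say that replicates are separate embryos, so the p-values cover only variation among these libraries, part or all of which may be technical.

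Non-homologous end joining rejoins the ends of a broken chromosome without a template, in all phases of the cell cycle. The Ku heterodimer of Ku80 (Xrcc5) and Ku70 (Xrcc6) rings the DNA end and recruits the kinase DNA-PKcs (Prkdc). Polymerases lambda (Poll) and mu (Polm) can fill the ends, and ligase IV (Lig4) seals them with its scaffold Xrcc4 and the Xrcc4-like factor encoded by Nhej1. Parp1, which marks breaks with poly(ADP-ribose), and ligase III (Lig3) act in single-strand break repair and in the alternative, microhomology-using route of end joining. In the embryonic nervous system, loss of Lig4 or Xrcc4 in mice is known to cause the death of newborn neurons. 53BP1, encoded by Trp53bp1, protects broken ends from resection and so favours end joining.

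Some facts about the libraries touch every comparison. The total count lay between 11081419 and 24339621 reads, so that 3 counts equalled between 0.126 and 0.261 CPM (counts per 1e6 of the scaled library size). The number of genes with any count did not follow this total. It was lowest in KO-labelled 1 (19493 genes, 20457680 reads) and highest in control 2 (27166), with 24381 in KO-labelled 2 (11081419 reads). What part this had in the low sums of markers below was not tested. Trp53bp1 itself had 26.8 ± 0.349 CPM in the control group and 27.1 ± 6.36 CPM in the KO-labelled group (n = 4 each, ± SD), a log2 fold change of 0.01 (95% interval -0.29 to 0.32). In-frame deletions need not lower a whole-gene count, and whether the targeted allele lowers it was not tested. The allele of each library is not given either, so this level does not check the labels. Xist had between 23853 and 26134 counts in each control and between 9 and 16 in each KO-labelled library, while the Y-linked gene Ddx3y was at 0 counts in all controls and had 579 to 1064 in each KO-labelled library. By these genes every control looked female and every KO-labelled library male, so that genotype and sex cannot be told apart in any difference below. Progenitor markers were present in all libraries, with a summed level of 9750 to 11800 CPM over 12 genes in the controls and 9250 to 12700 CPM in the KO-labelled group. Most of this sum was Fabp7, the target of the sorting dye (7591 ± 1010 and 7793 ± 1270 CPM, not called). Single progenitor genes did differ: 5 of the 12 rose and 3 fell, among them Msi1 (log2 fold change 0.87) and Nes (-0.90). Of 11 neuron genes tested, 2 rose and 4 fell. Among all 15021 genes tested, 16.1% rose and 13.9% fell (adjusted p under 0.05 by edgeR), the shares to set beside the counts of markers in this paragraph. Astrocyte genes were higher in the KO-labelled libraries (8 of 9 tested, summed level 610 to 1090 against 2680 to 2870 CPM). Markers of microglia, lymphoid cells, endothelium, red cells and mesenchyme summed to at most 102 CPM for any of these lists in any library, with Hba-a1 and Hba-a2 at 0 throughout. Of these, the mesenchymal list summed to 43.9 to 102 CPM in the control group and 20.0 to 27.2 CPM in the KO-labelled group (5 of 7 genes tested fell and 1 rose), and the endothelial list to 9.87 to 17.2 and 4.11 to 8.36 CPM (2 of 4 tested fell). Their part in the results was not tested.

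The KO-labelled libraries had less Parp1 RNA and more Xrcc5 RNA, and the other 8 core genes did not pass the test. Parp1 fell from 506 ± 73.7 to 308 ± 12.8 CPM, 1.65-fold, and Xrcc5 rose from 91.5 ± 3.07 to 113.9 ± 14.2 CPM, 1.25-fold (n = 4 each, ± SD). Thus 2 of 10 members, or 20.0%, were called at an adjusted p under 0.05, 1 in each direction. Among all genes tested 30.0% were called, 16.1% higher and 13.9% lower, so the share of core genes called was not above that of the transcriptome. The median log2 fold change of the members was 0.04, against 0.00 for all genes tested. Of the 8 members that were not called, 6 had a 95% interval that lay inside a 1.5-fold change either way, and the intervals of Nhej1 and Polm reached past it. In bulk RNA, fewer cells of a type and less RNA per cell cannot be told apart, here and in all comparisons below.

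**Figure D1:**
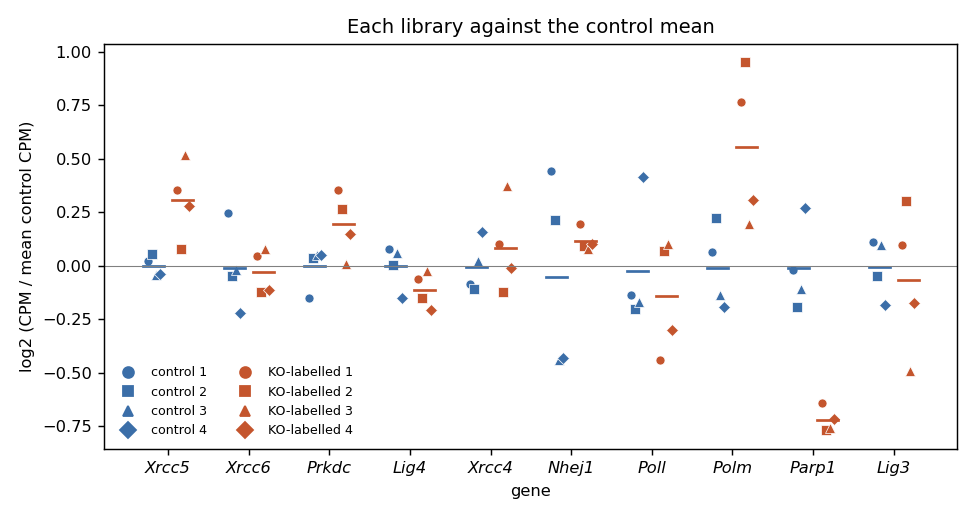
The CPM of each of the 10 core genes in each library is plotted on the vertical axis as its log2 ratio to the mean of the 4 controls. Points are libraries (shapes give the replicate number), short bars the mean of the log2 ratios of a group. The groups separate completely for Xrcc5 and Parp1 (2 of 10 genes, against 29.9% of all genes tested) and overlap for the other 8 genes.

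Promoter sequences are shown for the pair of genes whose RNA changed, since they lie on the same chromosome and moved in opposite directions. The bases before the start of each gene are from RefSeq (build GRCm38.p6, not the build of the counts). Capitals mark a CCAAT box (CCAAT) or a GC box (GGGCGG) on either strand. Xrcc5 is at chr1:72307171-72307416 and Parp1 at chr1:180568641-180568890, both on the plus strand.
Xrcc5: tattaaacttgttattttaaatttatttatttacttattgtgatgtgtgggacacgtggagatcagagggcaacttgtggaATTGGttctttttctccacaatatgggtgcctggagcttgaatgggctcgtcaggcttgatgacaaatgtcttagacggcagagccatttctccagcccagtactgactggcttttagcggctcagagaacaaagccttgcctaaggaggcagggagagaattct
Parp1: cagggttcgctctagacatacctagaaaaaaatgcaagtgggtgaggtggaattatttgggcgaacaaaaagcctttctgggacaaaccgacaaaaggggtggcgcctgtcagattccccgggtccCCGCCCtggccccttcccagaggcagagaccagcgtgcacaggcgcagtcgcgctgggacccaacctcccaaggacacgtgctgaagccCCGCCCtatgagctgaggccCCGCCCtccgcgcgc
The Parp1 stretch is 61.6% G and C and holds 3 GC boxes, while that of Xrcc5 is 43.9% G and C and holds 1 CCAAT box. Of 32851 RefSeq promoter windows of 250 bases, 32.7% held a GC box and 33.8% a CCAAT box. Windows were found for 8 of the 10 members, not for Prkdc and Poll. A GC box stood in those of 6 of the 8 (Xrcc6, Lig4, Xrcc4, Nhej1, Polm and Parp1) and a CCAAT box in those of 2 (Xrcc5 and Polm). The E2F words TTTCGCGC and TTTGGCGC, found in 0.654% of all windows, were in none of the 9 windows of these genes. These are matches of letters and do not show binding.

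Ku80 and Ku70 form an obligate dimer, but only the RNA of the Ku80 gene passed the test. Xrcc5, the Ku80 gene, had 92.9, 95.1, 88.8 and 89.0 CPM in controls 1 to 4 and 117, 96.6, 131 and 111 CPM in KO-labelled 1 to 4. KO-labelled 2 lay just above the highest control and the other KO-labelled libraries well above it. This was a rise of 0.32 on the log2 scale (SE 0.10, 95% interval 0.11 to 0.52, adjusted p = 0.0223 in edgeR's quasi-likelihood test). The call was lost without control 3 (adjusted p = 0.0742), KO-labelled 1 (0.0603), KO-labelled 3 (0.0741) or KO-labelled 4 (0.0548), with log2 fold changes of 0.24 to 0.32 in these fits. Xrcc6, the Ku70 gene, had 24.0, 19.6, 20.0 and 17.4 CPM in the control group and 20.9, 18.6, 21.4 and 18.7 CPM in the KO-labelled group. The KO-labelled values of Xrcc6 all fell within the range of the controls, and the fold change was -0.03 on the log2 scale (SE 0.12, interval -0.28 to 0.22, edgeR adjusted p = 0.888).

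The ratio of the Ku genes within a library does not depend on scaling between libraries. Counts of Xrcc5 were 3.87, 4.85, 4.44 and 5.11 times those of Xrcc6 in the controls and 5.58, 5.17, 6.13 and 5.96 times in the KO-labelled libraries. Every KO-labelled ratio was above every control ratio, by 0.33 on the log2 scale between the means (1.26-fold, exact permutation test, two-sided, p = 0.0286, the smallest that 4 against 4 allows). Adjusted over the 7 ratios tested by the Benjamini-Hochberg method this p was 0.1, which does not pass the threshold. With so high a smallest p, no ratio could pass after correction unless most of the 7 reached that smallest p. Not passing therefore cannot tell whether the ratio of the Ku genes differed.

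Prkdc encodes the catalytic subunit of DNA-PK, and its mRNA is the longest of the set. It had 152, 173, 175 and 175 CPM in the control group and 216, 203, 170 and 187 CPM in the KO-labelled group. KO-labelled 3 lay among the controls and the other KO-labelled libraries above them. This is a log2 fold change of 0.20 (SE 0.09, interval 0.00 to 0.40, edgeR adjusted p = 0.118). It passed the threshold without KO-labelled 3 (0.26, adjusted p = 0.0483 by edgeR) and with voom (0.21, adjusted p = 0.0497 by limma). KO-labelled 3 was also the library in which long transcripts were low: across 14544 genes, the deviation from the other KO-labelled libraries had a Spearman rho of -0.38 with exon length, against 0.31 in KO-labelled 2, 0.05 in KO-labelled 1 and 0.03 in KO-labelled 4. Control 1, lowest of the controls for Prkdc, had a rho of -0.31, against 0.04, 0.21 and 0.08 in controls 2, 3 and 4. The part of transcript length in the spread of Prkdc was not tested.

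The gene next to Prkdc on chromosome 16 is Mcm4, a subunit of the replicative helicase, which is read in the opposite direction. Mcm4 fell from 503 ± 87.2 to 186 ± 23.4 CPM (-1.44 on the log2 scale, SE 0.13, edgeR adjusted p = 1.42e-06). Counts of Mcm4 were 3.18, 2.58, 2.57 and 3.61 times those of Prkdc in the controls and 0.908, 0.947, 1.20 and 0.807 times in the KO-labelled libraries. The ratio fell by 1.63 on the log2 scale with no overlap between the groups. This ratio and that of Lig1 to Lig3 below were chosen after the values had been seen and are given with no test.

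The ligation complex showed no change that passed the test. Lig4, the ligase, had 16.3, 15.5, 16.1 and 13.9 CPM in the control group and 14.8, 13.9, 15.2 and 13.4 CPM in the KO-labelled group. The groups overlapped, with a log2 fold change of -0.11 (SE 0.11, interval -0.34 to 0.12). Xrcc4, the scaffold that stabilises the ligase, had 11.5, 11.3, 12.4 and 13.6 CPM in the control group and 13.1, 11.2, 15.8 and 12.1 CPM in the KO-labelled group. On the log2 scale it differed by 0.10 (SE 0.13, interval -0.17 to 0.38), and KO-labelled 3 was the highest library. Nhej1, the Xrcc4-like factor, had 65, 56, 30 and 30 counts in the controls, or 3.56, 3.04, 1.93 and 1.94 CPM. In the KO-labelled libraries it had 61, 32, 49 and 67 counts, or 3.00, 2.79, 2.76 and 2.81 CPM. The controls of Nhej1 fell into a higher and a lower pair, while the KO-labelled libraries lay close together between these pairs (log2 fold change 0.11, SE 0.23, interval -0.39 to 0.61). Within a library, counts of Xrcc4 were between 0.708 and 0.977 times those of Lig4 in the controls and between 0.807 and 1.04 times in the KO-labelled libraries (exact permutation test, two-sided, p = 0.2). The ratio of Nhej1 to Xrcc4 ranged from 0.145 to 0.311 in the controls and from 0.176 to 0.251 in the KO-labelled libraries (exact permutation p = 0.857 after Benjamini-Hochberg adjustment over the 7 ratios).

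The gap-filling polymerases had few reads. Polm, a polymerase that can extend ends with little or no pairing, was counted 31, 35, 23 and 22 times in the controls and 56, 36, 33 and 48 times in the KO-labelled libraries. This corresponds to 1.70, 1.90, 1.48 and 1.42 CPM against 2.76, 3.14, 1.86 and 2.01 CPM, where KO-labelled 3 lay below control 2. The log2 fold change of 0.56 was the highest of the set but had an SE of 0.25 and an interval of 0.01 to 1.11, and the adjusted p was 0.114 by edgeR. Poll, which fills short gaps, had 5.21, 4.99, 5.09 and 7.63 CPM in the control group and 4.23, 6.01, 6.14 and 4.65 CPM in the KO-labelled group. Control 4 stood above all other libraries, and the log2 fold change was -0.13 (SE 0.19, interval -0.53 to 0.27). Counts of Poll were 2.61 to 5.27 times those of Polm in the controls and 1.53 to 3.27 times in the KO-labelled libraries, which overlapped (log2 difference -0.67, exact permutation p = 0.0857, or 0.2 adjusted over the 7 ratios).

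Parp1 was the member with the most reads and the largest change past the threshold. It had 500, 443, 470 and 611 CPM in the control group and 325, 297, 299 and 308 CPM in the KO-labelled group, and the highest KO-labelled library was well below the lowest control. On the log2 scale it fell by 0.72 (SE 0.10, interval -0.94 to -0.50, edgeR adjusted p = 0.000114). It stayed between -0.78 and -0.61 and past the threshold in all 17 alternative fits. Counts of Parp1 were 5.38, 4.66, 5.29 and 6.86 times those of Xrcc5 in the controls and 2.79, 3.08, 2.28 and 2.77 times in the KO-labelled libraries, 2.02-fold lower (exact permutation test, two-sided, p = 0.0286, or 0.1 adjusted over the 7 ratios). The limit of this correction given for the Ku genes held here too. Parp1 took 56.6% to 64.7% of all counts of the 10 genes in the controls and 44.2% to 45.7% in the KO-labelled libraries. The summed level of the 10 genes was accordingly lower in the KO-labelled libraries (673 to 734 against 783 to 945 CPM), whereas the sum without Parp1 was higher (366 to 408 against 324 to 340 CPM). Most of the latter sum was Prkdc (168.6 CPM in the control and 194.1 CPM in the KO-labelled group, not called) and Xrcc5 (91.5 and 113.9 CPM). None of the other genes in it was called.

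Lig3, the ligase partner of Xrcc1, had 17.2, 15.4, 17.0 and 14.0 CPM in the control group and 17.0, 19.6, 11.3 and 14.1 CPM in the KO-labelled group. KO-labelled 2 was the highest and KO-labelled 3 the lowest of all 8 libraries. These were also the libraries with the highest and the lowest length trend given above, whose part in the spread was not tested. Not every long gene followed this order: Lig4 (5202 bases of exon, Lig3 6550) had 13.9 CPM in KO-labelled 2 and 15.2 CPM in KO-labelled 3. Xrcc5 (2555 bases) was lowest in KO-labelled 2 (96.6 CPM) and highest in KO-labelled 3 (131 CPM) among the KO-labelled libraries, and this was not tested either. The log2 fold change was -0.05 (SE 0.15, interval -0.37 to 0.28). The ratio of Lig3 to Lig4 counts was between 0.993 and 1.06 in all controls and spread from 0.741 to 1.40 in the KO-labelled libraries, with nearly equal means (exact permutation p = 0.857). The replicative ligase gene Lig1, by contrast, fell from 16.4 ± 1.04 to 7.16 ± 2.21 CPM (-1.22 on the log2 scale, SE 0.17, edgeR adjusted p = 9.06e-05). Counts of Lig1 were 0.882, 1.05, 0.985 and 1.26 times those of Lig3 in the controls and 0.357, 0.534, 0.511 and 0.453 times in the KO-labelled libraries, 2.26-fold lower and with no overlap.

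**Figure D2:**
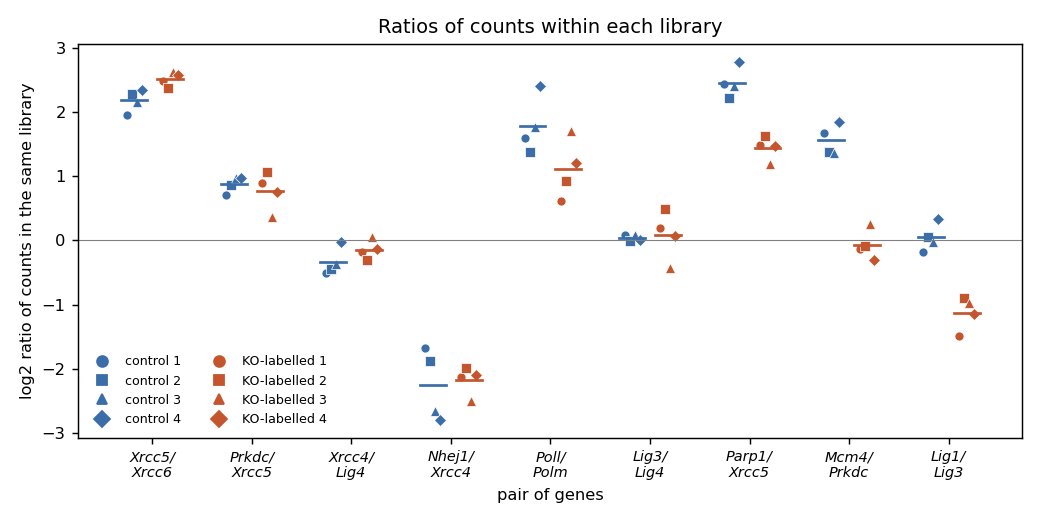
The vertical axis gives the log2 ratio of the counts of 2 genes in the same library, for 7 pairs of core genes and for Mcm4/Prkdc and Lig1/Lig3. Points are libraries and short bars group means; the groups are apart for Xrcc5/Xrcc6, Parp1/Xrcc5, Mcm4/Prkdc and Lig1/Lig3.

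Levels can be compared between genes only per length of transcript, here as CPM per kilobase of exon (GENCODE M21 models). In the controls Parp1 was highest with 131 ± 19.0, followed by Xrcc5 with 35.8 ± 1.21, Prkdc with 13.3 ± 0.886, Xrcc4 with 7.92 ± 0.681 and Xrcc6 with 6.10 ± 0.828 CPM per kilobase (SD, n = 4). The control libraries of each of these genes lay above those of the next. Lig4 (2.97 ± 0.209), Nhej1 (2.49 ± 0.775), Poll (2.47 ± 0.546) and Lig3 (2.43 ± 0.229) followed, with ranges that overlapped from each to the next, and Polm was lowest with 0.556 ± 0.075 CPM per kilobase. The order was the same in the KO-labelled libraries except that Lig3 came before Poll, with overlapping ranges. The Ku80 gene thus stood above its partner gene in level per kilobase in all 8 libraries. In the RefSeq models Xrcc6 overlaps Desi1 and Lig3 overlaps Rffl, and reads of overlapping genes may have been shared or dropped in the counting, so the levels of Xrcc6 and Lig3 are less certain than their spread.

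**Figure D3:**
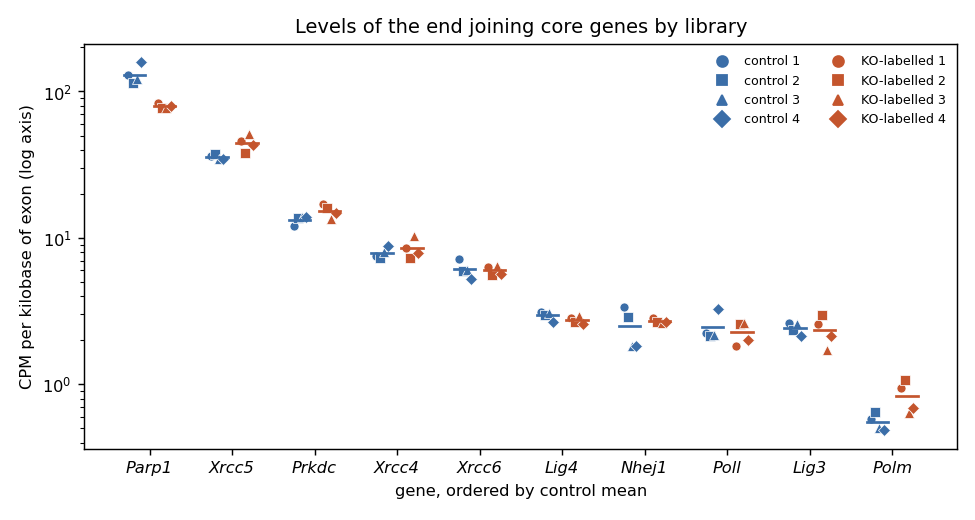
The vertical axis, on a log scale, gives CPM per kilobase of exon for each core gene, ordered by the control mean. Points are libraries and short bars group means; values run from 0.485 for Polm in control 4 to 158 for Parp1 in control 4.

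The factors that trim, clean or bridge ends for this pathway moved both ways. Of 12 genes listed, 11 were found in the table and 10 could be tested, of which 2 rose and 2 fell, where 16.1% of all genes tested rose and 13.9% fell. Their median log2 fold change was -0.03, against 0.00 for all genes tested. Aptx, which removes adenylate left by a failed ligation, rose from 7.74 ± 0.432 to 10.4 ± 0.295 CPM (0.43 on the log2 scale, SE 0.12, edgeR adjusted p = 0.0119). Polb, the polymerase of base excision repair, rose from 9.43 ± 0.77 to 12.6 ± 1.63 CPM (0.42, SE 0.13). Tdp2, which frees ends blocked by topoisomerase II, fell from 15.9 ± 1.65 to 11.5 ± 0.422 CPM (-0.47, SE 0.11), and Aplf, a scaffold that binds Ku and poly(ADP-ribose), fell from 5.69 ± 1.17 to 4.01 ± 0.409 CPM (-0.51, SE 0.18). For these 4 genes the groups did not overlap, as for 29.9% of all genes tested. Calls held in all 17 alternative fits for Aptx and Tdp2. That of Polb was lost without control 3 or KO-labelled 1 or 3, and that of Aplf without control 1 or 2 or KO-labelled 1, 2 or 4. Wrn, a helicase and exonuclease, had a log2 fold change of -0.35 (SE 0.13, edgeR adjusted p = 0.0559) that passed the threshold in some alternative fits. Dclre1c, the Artemis nuclease that opens hairpin ends, had a log2 fold change of 0.11 (SE 0.11). Dntt, the lymphoid polymerase that adds untemplated bases, had between 0 and 6 counts in a library and was not tested.

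Of 10 genes of the alternative route and of end resection, 5 fell and the other 5 were not called, where 13.9% of all genes tested fell. Their median log2 fold change was -0.35, against 0.00 for all genes tested, and 4 to 6 were called in the alternative fits. Polq, whose polymerase anneals microhomologies, had 11.5, 16.3, 18.2 and 18.4 CPM in the control group and 6.69, 8.45, 6.43 and 5.45 CPM in the KO-labelled group. Its control and KO-labelled values did not overlap (-1.27 on the log2 scale, SE 0.17, edgeR adjusted p = 7.88e-05). Fen1, the flap nuclease, fell from 29.9 ± 3.88 to 14.2 ± 1.22 CPM (-1.08, SE 0.12). Mre11a fell by 0.47 on the log2 scale (SE 0.10) and Nbn, of the same complex, by 0.34 (SE 0.10), although the call of Nbn was lost without control 1 or KO-labelled 2 or 4. Rad50, the other member of that complex, had a log2 fold change of -0.27 (SE 0.11, edgeR adjusted p = 0.0764) and was not called. Rbbp8, which starts resection with that complex, had one of -0.35 (SE 0.14, edgeR adjusted p = 0.0657) and was not called either. Rad50 passed the threshold with upper-quartile scaling, and Rbbp8 with voom and without control 1 or KO-labelled 2. Xrcc1, the scaffold of Lig3, had a log2 fold change of -0.17 (SE 0.11), Parp2, the closest relative of Parp1, one of 0.05 (SE 0.11), and Parg, which removes poly(ADP-ribose), one of -0.14 (SE 0.10); none of these passed the test.

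**Figure D4:**
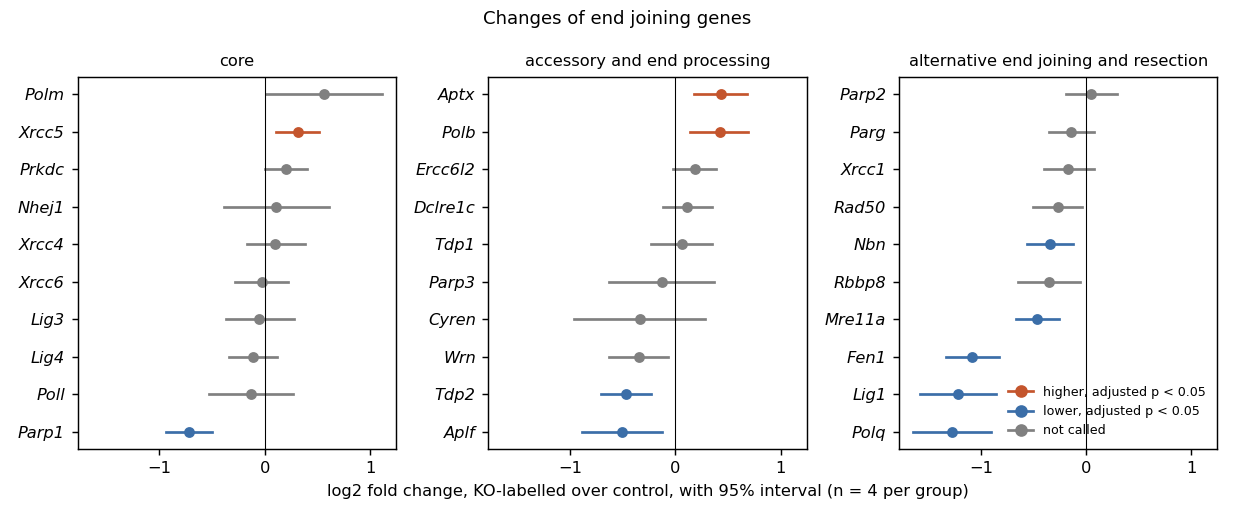
Log2 fold changes of KO-labelled over control are plotted on the horizontal axis with 95% intervals for the core genes, the accessory genes and the genes of alternative end joining that could be tested. Filled colours mark an adjusted p under 0.05 by edgeR; the core panel has Parp1 lower (-0.72) and Xrcc5 higher (0.32), and the last panel has 5 lower calls, down to -1.27 for Polq.

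Genes of the cell cycle were mostly lower in the KO-labelled libraries. Each of the 24 G1/S genes fell (median log2 fold change -1.07, summed level 3970 to 4730 CPM in the control group and 1790 to 2300 CPM in the KO-labelled group), as did 21 of 24 genes of the G2/M list (median -0.51). Of all genes tested, 13.9% fell. Mki67, the proliferation marker, had 2881 ± 318 and 1431 ± 180 CPM. Lig1, Fen1 and Mcm4 are themselves genes of DNA replication. The part of the cell cycle genes and of the astrocyte genes in the changes of Parp1, Polq and Xrcc5 was not tested.

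The genes whose levels followed Xrcc5 most closely over the 8 libraries, among 9922 with a mean of at least 5 CPM, were Actr6 (Pearson r = 0.992), Pole4 (0.990) and Tmem128 (0.990). Those closest to Prkdc were P4ha1 (0.964), Ilkap (0.962) and Med13 (0.947). The libraries share group, depth and length trend, so these values only describe likeness. Within the set, the Pearson r was 0.304 for the RNAs of Xrcc5 and Prkdc, 0.235 for Xrcc5 and Xrcc6 and -0.04 for Xrcc4 and Lig4. Over all pairs of members it ran from -0.794 (Xrcc4 and Lig3) to 0.772 (Prkdc and Polm), and Xrcc6 and Lig4 with 0.767 were near the top.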

How the data were processed

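Libraries were stranded and sequenced as paired ends, per the labels' protocols. The authors deposited 1 table of raw read counts per gene. Tools listed in the submitters' processing notes are HTSeq 0.6.1p1 and CASAVA, with the mouse builds NCBIM37 and mm9. Which aligner was used, and whether counting used strand, is not given in the sources used here. Genes were kept with filterByExpr, scaled by TMM and tested in edgeR 4.0.16 (R 4.3.3) with the quasi-likelihood F test, two-sided, with Benjamini-Hochberg adjustment over all 15021 genes tested. The SE is the log2 fold change divided by the square root of F. CPM use TMM-scaled library sizes. Ratios within a library used counts plus 0.5 and exact permutation over 70 arrangements. Alternatives were DESeq2 1.42.0, voom with quality weights (limma 3.58.1), robust dispersion, other scalings and filters, a replicate block and leaving out each library. A gene of the accessory list is not reported here, and counts over that list leave it out. Exon lengths and neighbours came from GRCm38 annotation by symbol, another assembly than that of the counts.

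The members and lists were chosen with earlier results of these data known. The named genes are the 10 members, genes of the 2 other end joining lists past the threshold, up to 2 genes per marker list, the genes that check the labels, Mcm4 and the 3 genes most like Xrcc5 and Prkdc. Dclre1c, Dntt, Wrn, Ercc6l2, Rad50, Rbbp8, Xrcc1, Parp2, Parg, Fabp7, Hba-a1 and Hba-a2 stand outside this rule and were named after their values were seen. Cyren was found under an older symbol, and Paxx was not matched and is not analysed here. On 5 sets of simulated counts for this comparison (14719 to 14749 genes, 200 changed), the fit recovered 3.08% of genes changed 1.25-fold, 37.4% of those changed 1.5-fold and 79.8% of those changed 2-fold, with 7.18% false calls. The simulations changed far fewer genes than were called in the data, so recovery may differ there.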

Additional observations from a re-analysis of the deposited data

Results flagged for a closer look

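Among 38 groups of 4 libraries looked at (19 genes in 2 groups), 3 held a library far from its others, where chance gives about 1 in 20. Prkdc in control 1 had 152 CPM against 173 to 175 CPM in the other controls. Poll in control 4 had 7.63 CPM against 4.99 to 5.21 CPM. Lig1 in KO-labelled 2 had 10.5 CPM against 5.75 to 6.37 CPM in the other KO-labelled libraries, and was still below the lowest control.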

How the results depend on the processing

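Of the 10 core genes, 2 were called in the fit reported and between 1 and 2 when 1 library was left out: the count was 1 without control 3, KO-labelled 1 or KO-labelled 4, when Parp1 alone passed, and 2 without KO-labelled 3, when Prkdc passed in place of Xrcc5. With voom it was 3. Parp1 was called in 17 of 17 alternative fits and Xrcc5 in 13; Xrcc6, Lig4, Xrcc4, Nhej1, Poll, Polm and Lig3 were called in none. The number of all genes called was within 1.5 times the main count throughout, and none of the genes named from the end joining lists was called in the opposite direction. Calls of Aplf and Nbn were also lost without a filter on low counts. Of all calls 53.6% were higher, and 62.1% without that filter, but 49.1% with library size alone and 47.0% with upper-quartile scaling, so which direction held more calls depended on the scaling. Same-numbered libraries did not pair throughout (correlations of deviations 0.254, 0.279, -0.158 and 0.01). Controls 1 and 2 were most like the KO-labelled library of the same number, but controls 3 and 4 were most like KO-labelled 1 and 2. With the replicate number as a block, 4177 genes were called against 4499, Parp1 (-0.71) and Xrcc5 (0.31, adjusted p = 0.0484 by edgeR) stayed called, and Aplf and Polb did not; only 2 accessory genes were then called, as without KO-labelled 1, against 4. The count was 5 with RLE or upper-quartile scaling, the filter of 1 CPM or DESeq2, when Wrn also passed, and 6 with voom, when Wrn (-0.38) and Ercc6l2 (0.22) did; Wrn (-0.46) also passed without KO-labelled 2. In the block, ratios kept their means and had p-values of at least 0.125 by exact sign flips, the smallest that 4 pairs allow. Ratios without 1 library have no test that could pass. Changes of 1.25-fold, the size seen for Xrcc5, were mostly missed on simulated counts. Far fewer genes changed there than were called in the data, so that recovery cannot tell how many such changes were missed here. Of the core genes not called, only Xrcc6 had an interval (0.826-fold to 1.17-fold) inside a 1.25-fold change either way. The intervals of the others reached it, so those genes may have changed by that much.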
